A study of Mus musculus with 4 samples.

Results

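Genes that break down fatty acids in mitochondria and peroxisomes, with genes that build peroxisomes, were followed in regenerating mouse liver after an siRNA against Orm1. The members were fixed as a list of 48 gene symbols, and each was read from the probe sets of the array that name that symbol alone. Of the 48, 47 were measured, out of 10923 genes in all; Acsl1, an acyl-CoA synthetase, was not analysed here. By where their proteins are known to work, 19 of the measured members were placed in mitochondria, 23 in peroxisomes and 5 in both or in other places.

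The siOrm group held 2 arrays of livers from mice given an siRNA against Orm1, and the siControl group held 2 arrays of livers from mice given a control siRNA. All mice were C57BL6/J males aged 6 to 13 weeks. In both groups the siRNA was injected once with Invivofectamine 3.0, a lipid reagent for delivery in animals. A partial hepatectomy of 40% followed 3 days later, and livers were taken 48 hours after the operation. Every value below therefore comes from a liver that had lost tissue and was regrowing, and no liver without surgery was included. The labels do not say whether an array stands for 1 mouse or for a pool, so the spread between arrays may be technical. The protocol text names cultured cells and another maker's labelling kit, which goes against the liver tissue and the array type that the other labels give. The siOrm titles end in 1 and 2, which could mean replicates or the genes Orm1 and Orm2. The siControl titles also end in 1 and 2, and a shared source name puts both siOrm arrays in 1 group.

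Hepatocytes take up fatty acids and join them to coenzyme A. The carnitine shuttle carries long-chain acyl groups into mitochondria, where repeated rounds of β-oxidation cut them to acetyl-CoA, part of which the liver turns into ketone bodies. Peroxisomes shorten very long, branched and dicarboxylic chains, and their first oxidase step makes hydrogen peroxide, which catalase removes. Peroxins import the enzymes of the matrix, insert membrane proteins and divide the organelle. In mouse liver many of these genes are known targets of PPAR-alpha, a nuclear receptor that binds a repeat of the hexamer AGGTCA.

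Each value is a log2 signal after subtraction of the 4-array median of its probe set, averaged over the probe sets of a gene. Base 2 is assumed, because the deposited values do not state their base; were they natural logarithms, all values would have to be multiplied by 1.44 to be in base 2. The median of 4 values is the mean of the middle pair, so the middle 2 arrays of a probe set lie at equal distances above and below 0. Signal level cannot be seen in such values, and levels cannot be compared between genes. Liver identity could for the same reason not be checked. The 11 hepatocyte markers measured had medians of 0.04 and 0.01 in the siOrm arrays and -0.02 and -0.05 in the siControl arrays. Centred values show how arrays differ from each other, not whether a marker is expressed. A difference is the siOrm mean minus the siControl mean, tested two-sided with limma across all genes. In whole liver, fewer cells of a type and less RNA per cell cannot be told apart.

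The targeted gene gave only a weak check of the labels. Orm1, which encodes the acute phase protein orosomucoid, stood at -0.24 and -0.02 in the siOrm arrays, against 0.02 and 0.19 in the siControl arrays. The groups did not overlap, and the difference of -0.23 (SE 0.15) did not pass (limma adjusted p = 0.994). Its paralogs had larger differences in the same direction. Orm2 stood at -0.94 and -0.16 in the siOrm arrays, against 0.16 and 0.90 in the siControl arrays, which is a difference of -1.08 with an SE of 0.34. Orm3 stood at -0.31 and -0.15 in the siOrm arrays, against 0.15 and 1.20 in the siControl arrays, which is a difference of -0.91 with an SE of 0.34. Neither paralog overlapped between groups and neither passed (limma adjusted p = 0.994 for both). With 1 array left out, Orm1 ran from -0.34 to -0.12, Orm2 from -1.46 to -0.69 and Orm3 from -1.43 without siControl replicate 1 to -0.39 without siControl replicate 2.

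Most of the oxidation and peroxisome genes were slightly higher in the siOrm livers, and none passed the test. The difference was above 0 for 43 of 47 members, against 52.2% of all genes, and its median was 0.23, against 0.01 over all genes. In 29 members the lower siOrm array still exceeded the higher siControl array, against 17.0% of all genes, and in 1 member the order was the opposite, against 15.3%. At an adjusted p under 0.05, 0 of 47 members and 0% of all genes were called (limma), and the smallest adjusted p of a member was 0.994. At an unadjusted p under 0.05, 5 members were higher, against 2.18% of all genes, and 0 were lower, against 2.58%. The differences ran from -0.22 to 0.51. For 18 members the difference was larger than the gap between replicates in either group, against 20.3% of all genes.

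**Figure D1:**
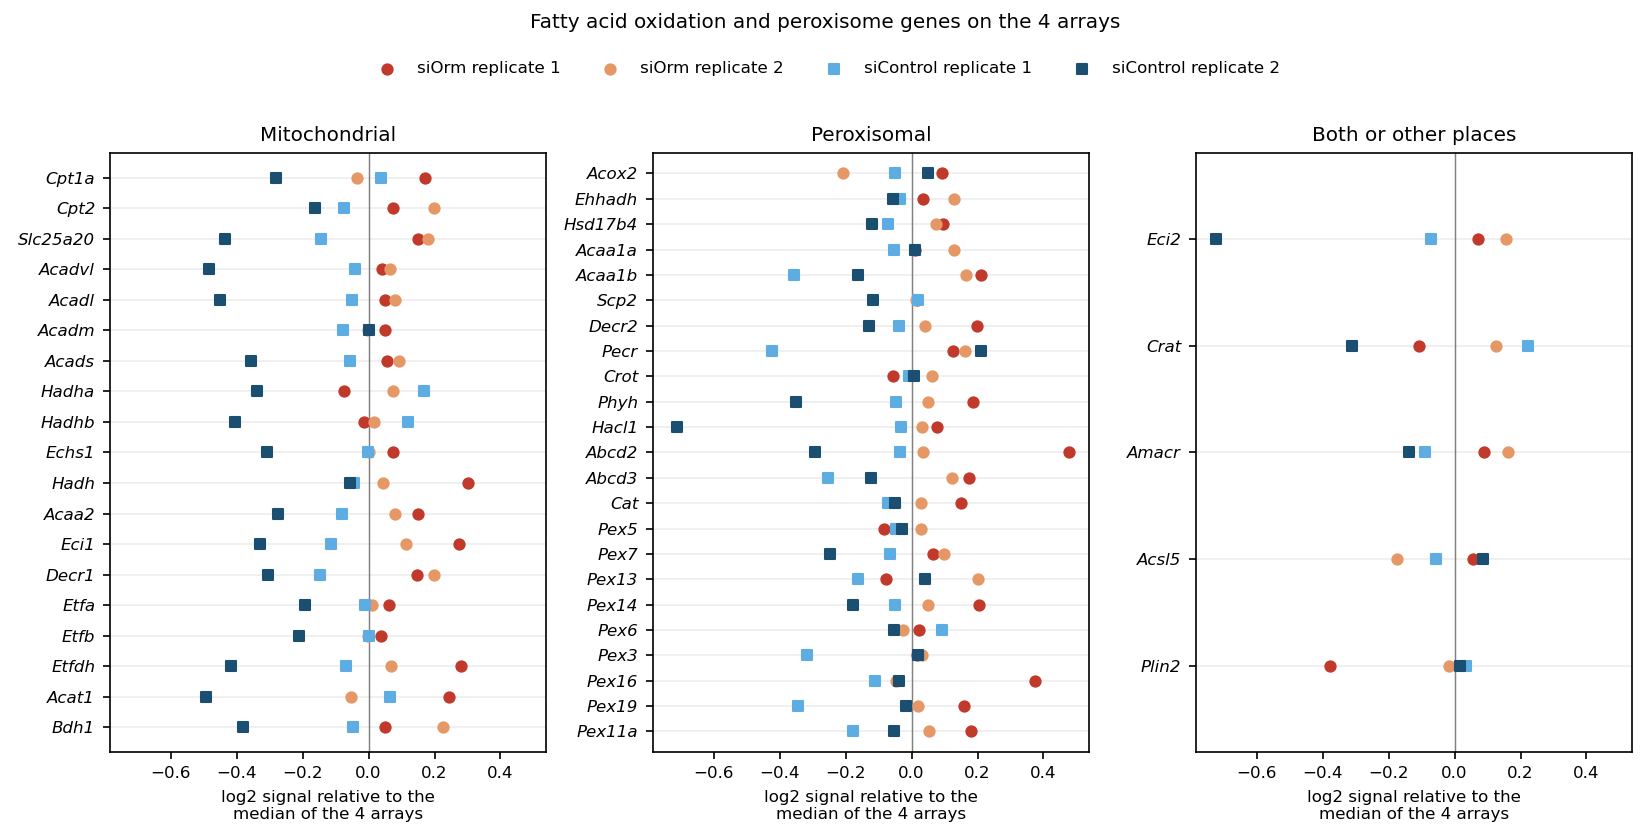
Log2 signal of each member relative to its 4-array median (x axis), for siOrm arrays (circles) and siControl arrays (squares), by the place where the protein works. Among mitochondrial genes the siControl replicate 2 square was the leftmost point for 18 of 19 genes; among peroxisomal genes it was so for 10 of 23.

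The promoters of 4 members are shown because the hexamer repeat bound by PPAR-alpha is known from genes of this pathway. Whether promoter sequence bears on the differences was not tested. The 4 members are the carnitine carrier Slc25a20 and Cpt1a from the shuttle, and the peroxisomal thiolases Acaa1b and Acaa1a, a paralog pair with unequal differences. That inequality was not tested. Each run covers 250 bases before to 50 bases after the start of transcription, 5′ to 3′ on the gene's strand, from RefSeq on GRCm38.p6. Slc25a20 lies at chr9:108661886-108662185 on the plus strand, Cpt1a at chr19:3323051-3323350 on the plus strand, Acaa1b at chr9:119157044-119157343 on the minus strand and Acaa1a at chr9:119341044-119341343 on the plus strand. Capitals mark the hexamer AGGTCA, the GC box GGGCGG and the CCAAT box CCAAT on either strand, and adjoining or overlapping matches run together.
Slc25a20: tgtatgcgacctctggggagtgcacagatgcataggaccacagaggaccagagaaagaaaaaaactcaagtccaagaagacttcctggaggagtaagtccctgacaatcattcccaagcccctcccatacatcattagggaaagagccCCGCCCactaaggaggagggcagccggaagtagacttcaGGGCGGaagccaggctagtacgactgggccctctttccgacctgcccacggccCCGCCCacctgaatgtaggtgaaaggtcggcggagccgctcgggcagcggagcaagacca
Cpt1a: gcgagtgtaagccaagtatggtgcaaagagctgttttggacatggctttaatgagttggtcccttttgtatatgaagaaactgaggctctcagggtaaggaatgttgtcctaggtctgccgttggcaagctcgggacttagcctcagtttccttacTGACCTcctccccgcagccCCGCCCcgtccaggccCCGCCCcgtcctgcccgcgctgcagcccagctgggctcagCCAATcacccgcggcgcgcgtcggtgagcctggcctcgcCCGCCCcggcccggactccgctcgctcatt
Acaa1b: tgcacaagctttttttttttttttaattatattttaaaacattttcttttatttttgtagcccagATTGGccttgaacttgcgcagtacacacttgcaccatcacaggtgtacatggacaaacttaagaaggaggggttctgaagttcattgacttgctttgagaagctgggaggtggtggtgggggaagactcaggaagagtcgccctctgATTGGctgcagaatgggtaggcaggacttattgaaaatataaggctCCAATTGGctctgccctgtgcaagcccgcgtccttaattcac
Acaa1a: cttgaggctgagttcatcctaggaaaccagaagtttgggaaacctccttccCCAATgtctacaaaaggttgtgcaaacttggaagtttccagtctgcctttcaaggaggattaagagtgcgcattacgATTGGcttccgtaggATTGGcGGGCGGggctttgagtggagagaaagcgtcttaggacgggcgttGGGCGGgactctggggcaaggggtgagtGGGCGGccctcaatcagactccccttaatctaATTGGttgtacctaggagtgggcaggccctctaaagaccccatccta

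The Cpt1a window held 1 hexamer, 3 GC boxes and 1 CCAAT box. The Slc25a20 window held 3 GC boxes and no exact copy of the hexamer or the CCAAT box. Inexact hexamers were not counted, such as aggtga and aggtcg within the Slc25a20 stretch aggtgaaaggtcg. Acaa1b and Acaa1a each held 4 CCAAT boxes, and Acaa1a also held 3 GC boxes, against 0 in Acaa1b. Aligned end to end, the windows of Acaa1b and Acaa1a shared 153 bases and differed at 125, with 44 gap positions. Leaving out the gaps, 55% of the aligned bases were identical. No unrelated windows were aligned, so this share cannot be read as similarity of the pair. Promoters were found for 39 of the 47 measured members, and a gene with several windows was counted once. The repeat AGGTCANAGGTCA, searched on both strands, was in 0 of the 39, against 0.0481% of 27025 genes with a promoter. With the 4th base of each hexamer left free, AGGNCANAGGNCA was also in 0 of the 39, against 0.451% of genes. No match says only that these letters are not in these windows. A lone AGGTCA was in 8 members (20.5%, against 18.1% of genes), namely Acadm, Acadvl, Cat, Cpt1a, Echs1, Phyh, Plin2 and Scp2. The GC box and the CCAAT box were added after the values were seen. GC boxes were in 13 of 16 mitochondrial and 15 of 20 peroxisomal members, against 38.2% of genes. CCAAT boxes were in 5 of 16 mitochondrial and 11 of 20 peroxisomal members, against 41.1% of genes. Members had GC-rich windows, with a median of 59.3% G and C, against 52.8% over the 27025 genes with a promoter. Those comparison genes were not limited to the genes measured on the array, so these contrasts may not be particular to the members.

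The carnitine shuttle held the largest mitochondrial difference. Slc25a20, the carrier that exchanges acylcarnitine for carnitine across the inner membrane, stood at 0.15 and 0.18 in siOrm, against -0.15 and -0.44 in siControl. The groups did not overlap, and the difference was 0.46 (SE 0.15, 95% interval 0.08 to 0.83, limma adjusted p = 0.994). Its 2 probe sets gave 0.40 and 0.51. Cpt2, which turns acylcarnitine back into acyl-CoA inside the mitochondrion, stood at 0.07 and 0.20 in siOrm, against -0.07 and -0.16 in siControl, again without overlap. Cpt1a, the rate-limiting entry step on the outer membrane, stood at 0.17 and -0.04 in siOrm, against 0.04 and -0.28 in siControl. Its arrays overlapped, since siOrm replicate 2 lay below siControl replicate 1. The Cpt1a difference of 0.19 (SE 0.17) was 0.03 without siControl replicate 2.

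Acyl-CoA dehydrogenases start each round of β-oxidation, for chains of different length. Of the 4 measured, 3 had siOrm arrays above both siControl arrays, against 17.0% of all genes. Acadvl, for very long chains, stood at 0.04 and 0.06 in siOrm, against -0.04 and -0.48 in siControl. Acadl, for long chains, stood at 0.05 and 0.08 in siOrm, against -0.05 and -0.45 in siControl. Acads, for short chains, stood at 0.06 and 0.09 in siOrm, against -0.06 and -0.36 in siControl. In all 3, siControl replicate 2 lay far below an otherwise narrow set of 3 arrays, and the gap between the siControl arrays was larger than the difference, which was 0.31, 0.31 and 0.28 (SE 0.18, 0.17 and 0.15). Without siControl replicate 2 the differences were 0.09, 0.11 and 0.13. Acadm, for medium chains, differed by 0.06 (SE 0.13), and its arrays overlapped.

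The later steps of the spiral differed by 0.08 to 0.29. Acaa2, the mitochondrial thiolase, stood at 0.15 and 0.08 in siOrm, against -0.08 and -0.27 in siControl, a difference of 0.29 (SE 0.14). Hadh, the dehydrogenase for medium and short chains, stood at 0.30 and 0.04 in siOrm, against -0.05 and -0.06 in siControl, a difference of 0.22 (SE 0.15). Both were without overlap. Echs1, the short-chain hydratase, differed by 0.19 (SE 0.16), with siOrm replicate 2 and siControl replicate 1 within 0.01 of 0. Hadha and Hadhb, the subunits of the trifunctional protein that handles long chains, differed by 0.08 (SE 0.20) and 0.14 (SE 0.20). For both, siControl replicate 1 was the highest of the 4 arrays, at 0.17 for Hadha and 0.12 for Hadhb, and siControl replicate 2 the lowest, at -0.34 and -0.40. Without siControl replicate 2 the differences were -0.17 for Hadha and -0.12 for Hadhb.

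The enzymes that prepare unsaturated chains were both higher in siOrm by more than the gaps between replicates. Eci1, an enoyl-CoA isomerase, stood at 0.27 and 0.11 in siOrm, against -0.11 and -0.33 in siControl, a difference of 0.42 (SE 0.15, 95% interval 0.05 to 0.78). Decr1, the 2,4-dienoyl-CoA reductase, stood at 0.15 and 0.20 in siOrm, against -0.15 and -0.30 in siControl, a difference of 0.40 (SE 0.13, 95% interval 0.06 to 0.73). Neither gene overlapped between groups, although neither passed (limma adjusted p = 0.994). With any 1 array left out, Eci1 ran from 0.31 to 0.52 and Decr1 from 0.32 to 0.48.

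Electrons from the dehydrogenases pass through the electron transfer flavoprotein to the respiratory chain. Etfdh, the membrane oxidoreductase of this path, stood at 0.28 and 0.07 in siOrm, against -0.07 and -0.42 in siControl, a difference of 0.42 (SE 0.17). Etfa and Etfb, the flavoprotein subunits, differed by 0.14 (SE 0.14) and 0.12 (SE 0.14). The siOrm arrays of Etfdh and Etfa lay above the siControl arrays, and those of Etfb overlapped with them.

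Of ketone body metabolism, Acat1 and Bdh1 were measured. Bdh1, which interconverts acetoacetate and 3-hydroxybutyrate, stood at 0.05 and 0.22 in siOrm, against -0.05 and -0.38 in siControl, a difference of 0.35 (SE 0.17) without overlap. Acat1, the acetoacetyl-CoA thiolase, stood at 0.24 and -0.05 in siOrm, against 0.07 and -0.49 in siControl. The groups overlapped, and the Acat1 difference of 0.31 (SE 0.23) was 0.03 without siControl replicate 2.

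**Figure D2:**
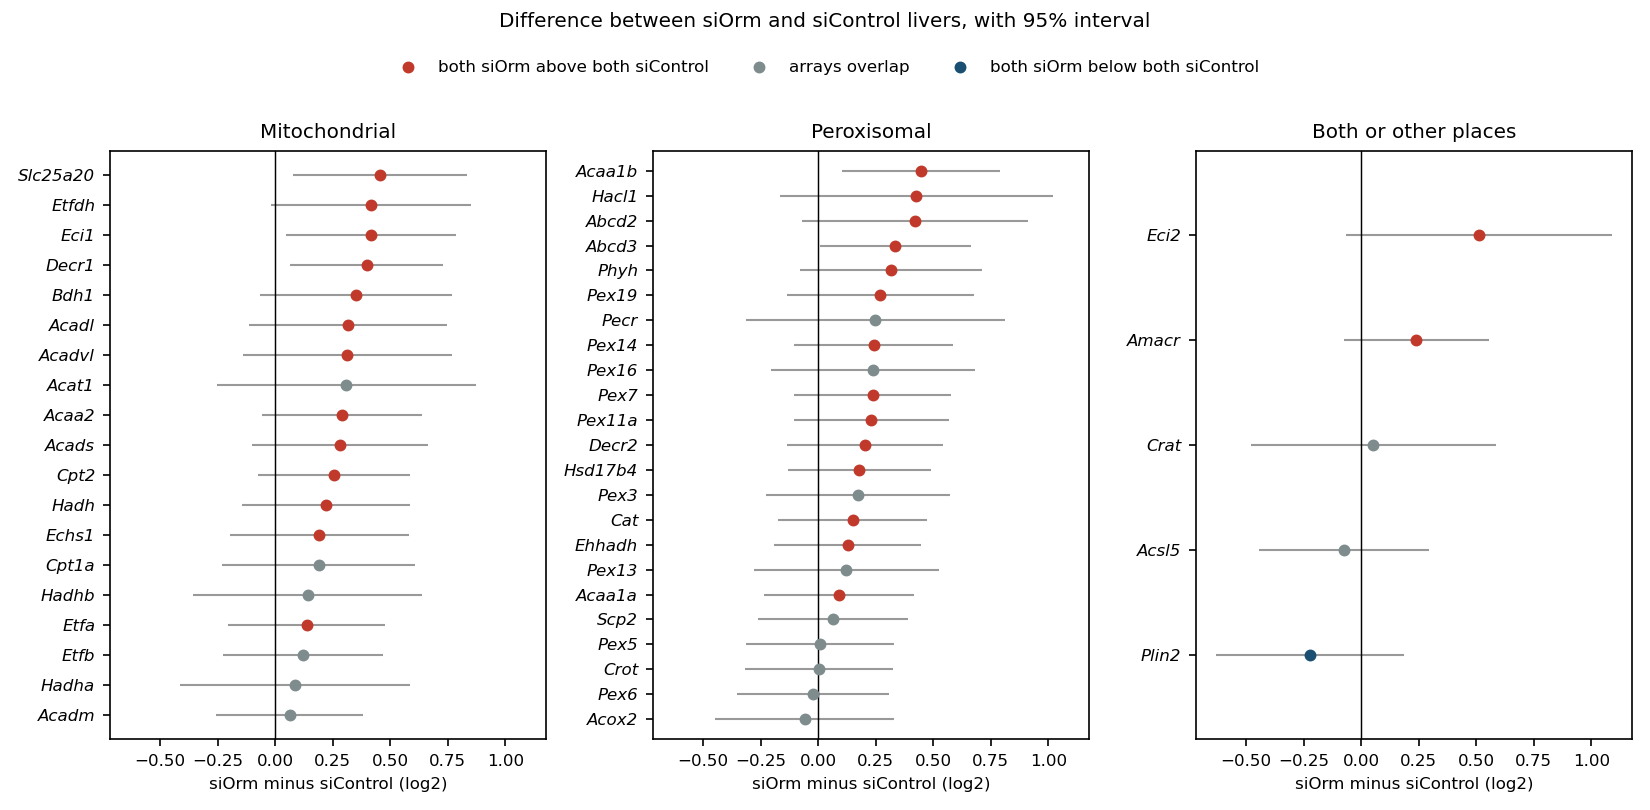
Difference between siOrm and siControl livers on the log2 scale (x axis) for each member, with the 95% interval from limma as a bar and colour for separation of the arrays. All 19 mitochondrial differences lay above 0, 21 of 23 peroxisomal differences did, and most intervals included 0.

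In the peroxisomal spiral, the thiolase Acaa1b had the largest difference. Acaa1b, thiolase B, which in rodents is strongly inducible by PPAR-alpha ligands, stood at 0.21 and 0.16 in siOrm, against -0.36 and -0.16 in siControl. The groups did not overlap, and the difference was 0.45 (SE 0.14, 95% interval 0.10 to 0.79, limma adjusted p = 0.994). It ran from 0.35 to 0.54 with any 1 array left out. Its paralog Acaa1a, thiolase A, stood at 0.0098 and 0.13 in siOrm, against -0.05 and 0.0097 in siControl, a difference of 0.09 (SE 0.13). The siOrm replicate 1 and siControl replicate 2 values were practically level. Both Acaa1a probe sets carry names of the kind that can share sequence with other genes, so signal of the pair may be mixed; the difference between the paralogs was not tested.

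The other peroxisomal enzymes of the spiral differed by less than 0.2. Hsd17b4, the multifunctional enzyme for branched and bile acid chains, stood at 0.09 and 0.07 in siOrm, against -0.07 and -0.12 in siControl, a difference of 0.18 (SE 0.13). Ehhadh, its counterpart for straight and dicarboxylic chains, stood at 0.04 and 0.13 in siOrm, against -0.04 and -0.06 in siControl, a difference of 0.13 (SE 0.13). Neither overlapped between groups. Scp2, the sterol carrier and thiolase for branched chains, differed by 0.06 (SE 0.13) and Acox2, the branched-chain oxidase, by -0.06 (SE 0.16), with overlap in both. Crot, which exports shortened chains as carnitine esters, differed by 0.00 (SE 0.13).

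Among the enzymes for unsaturated chains, Decr2 stood at 0.20 and 0.04 in siOrm, against -0.04 and -0.13 in siControl, a difference of 0.20 (SE 0.14). Pecr, a trans-2-enoyl-CoA reductase, was the member whose probe sets disagreed most. Of the pair, 1 gave 0.51 without overlap between groups and the other -0.01 with siControl replicates 1 and 2 as the lowest and highest arrays. Their mean was 0.25 (SE 0.23).

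The α-oxidation enzymes remove the first carbon of chains with a methyl branch, such as phytanic acid. Hacl1, the lyase, stood at 0.08 and 0.03 in siOrm, against -0.03 and -0.71 in siControl, a difference of 0.43 (SE 0.24). Phyh, the hydroxylase, stood at 0.19 and 0.05 in siOrm, against -0.05 and -0.35 in siControl, a difference of 0.32 (SE 0.16). Neither overlapped, and in both siControl replicate 2 was the lowest array, as in most mitochondrial genes. Without it the differences were 0.09 for Hacl1 and 0.17 for Phyh.

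The importers of fatty acyl-CoA into peroxisomes were higher in both siOrm arrays. Abcd3, the main hepatic importer of branched and dicarboxylic chains, stood at 0.17 and 0.12 in siOrm, against -0.25 and -0.12 in siControl, a difference of 0.34 (SE 0.13, 95% interval 0.01 to 0.66). It ran from 0.27 to 0.40 with any 1 array left out. Abcd2, for very long chains, stood at 0.48 and 0.04 in siOrm, against -0.04 and -0.29 in siControl, a difference of 0.42 (SE 0.20), and of 0.20 without siOrm replicate 1. Cat, which encodes catalase, stood at 0.15 and 0.03 in siOrm, against -0.07 and -0.05 in siControl, a difference of 0.15 (SE 0.13). None of the 3 overlapped between groups, where 17.0% of all genes were higher in siOrm without overlap. None passed (limma adjusted p = 0.994).

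Over the 9 peroxins the median difference was 0.23, as over all members, and 4 of them were higher in siOrm without overlap, against 17.0% of all genes. Pex14 and Pex7, a docking protein of the import pore and the receptor for the second type of targeting signal, differed by 0.24 each (SE 0.14 and SE 0.14). Pex5, the receptor for the first type, differed by 0.01 (SE 0.13), and its 2 probe sets gave -0.13 and 0.15. Pex13, a partner of Pex14 in the membrane, differed by 0.12 (SE 0.16), and Pex6, an ATPase that recycles the receptors, by -0.02 (SE 0.13). Those 3 overlapped between groups.

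Of the peroxins that insert membrane proteins, Pex19 stood at 0.16 and 0.02 in siOrm, against -0.35 and -0.02 in siControl, a difference of 0.27 (SE 0.16), or 0.11 without siControl replicate 1. Pex3, its docking partner, stood at 0.02 and 0.03 in siOrm, against -0.32 and 0.02 in siControl, so that siControl replicate 1 alone lay apart. Pex16 stood at 0.37 and -0.05 in siOrm, against -0.11 and -0.04 in siControl, with overlap. Its probe sets gave 0.43 and 0.05. Pex11a, which helps peroxisomes divide, stood at 0.18 and 0.05 in siOrm, against -0.18 and -0.05 in siControl, a difference of 0.23 (SE 0.14). For 5 of the 9 peroxins the lowest array was siControl replicate 1, and for 3 it was siControl replicate 2.

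The members outside a single compartment went both ways. Eci2, an isomerase of peroxisomes and mitochondria, had the largest difference of all members, at 0.07 and 0.15 in siOrm, against -0.07 and -0.72 in siControl. The groups did not overlap, and the difference of 0.51 (SE 0.23) was 0.18 without siControl replicate 2. Amacr, a racemase for branched chains in both organelles, stood at 0.09 and 0.16 in siOrm, against -0.09 and -0.14 in siControl, a difference of 0.24 (SE 0.13). Crat, the short-chain carnitine acetyltransferase, differed by 0.05 (SE 0.21), with siControl replicate 1 the highest and siControl replicate 2 the lowest array. Acsl5, an acyl-CoA synthetase, differed by -0.07 (SE 0.15). Plin2, a lipid droplet coat protein and not an oxidation enzyme, was the 1 member with both siOrm arrays lowest. It stood at -0.38 and -0.02 in siOrm, against 0.03 and 0.02 in siControl, a difference of -0.22 (SE 0.16), or -0.04 without siOrm replicate 1.

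The comparison of mitochondrial with peroxisomal genes turned on siControl replicate 2. The median difference was 0.28 over 19 mitochondrial genes and 0.20 over 23 peroxisomal genes, and 13 and 14 of them had no overlap, all higher in siOrm, against 17.0% of all genes. By array, the mitochondrial medians were 0.07 and 0.07 in siOrm, against -0.05 and -0.33 in siControl. Peroxisomal medians were 0.09 and 0.05 in siOrm, against -0.05 and -0.05 in siControl. Centring holds the middle 2 values of a probe set around 0, so close medians do not mean equal levels. The 2 compartments stood within 0.02 of each other on both siOrm arrays and on siControl replicate 1. On siControl replicate 2, mitochondrial minus peroxisomal was -0.28. That array was the lowest of the 4 for 18 mitochondrial and 10 peroxisomal genes, against 38.8% of all genes. The siControl replicate 1 array was the lowest for 1 mitochondrial and 10 peroxisomal genes, against 20.5% of all genes. Members are not replicates, and 2 arrays against 2 allow no p under 0.33 by exact permutation, so the difference between compartments was described without a test.

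**Figure D3:**
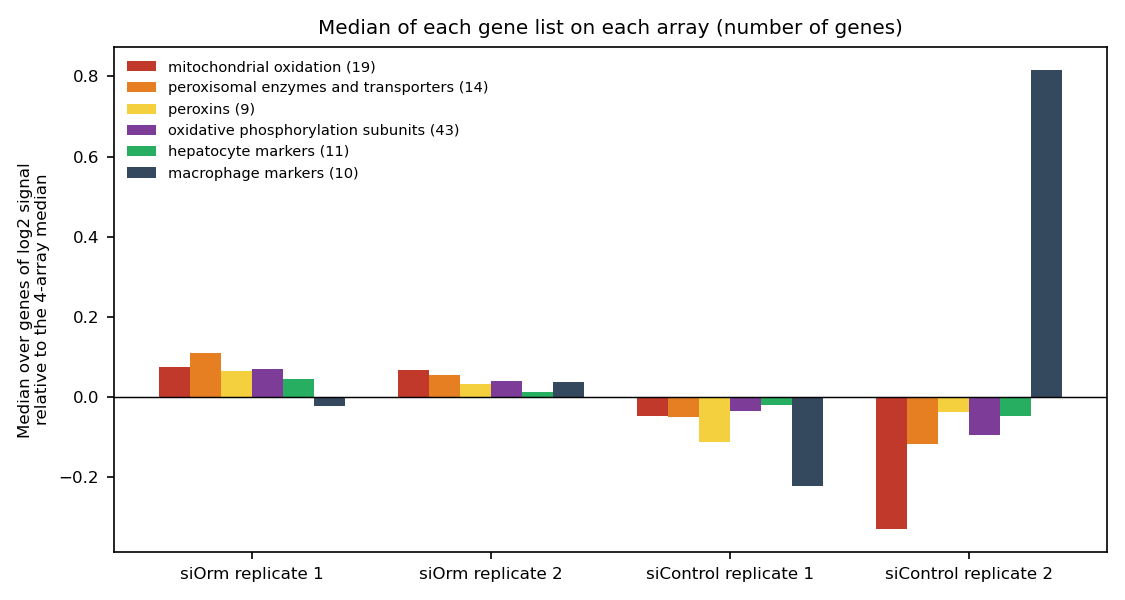
Median over the genes of each list (bars) of log2 signal relative to the 4-array median (y axis), on each array. Mitochondrial oxidation genes had their lowest median, -0.33, on siControl replicate 2, where macrophage markers had their highest, 0.82.

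Leaving out siControl replicate 2 turned the order of the compartments. The median difference was then 0.11 for mitochondrial and 0.16 for peroxisomal genes, against -0.01 over all genes. Without siControl replicate 1 it was 0.40 for mitochondrial and 0.14 for peroxisomal genes, against 0.04 over all genes. Removing siControl replicate 2 turned or shrank the difference by over 1.5 times for 13 of 19 mitochondrial and 5 of 23 peroxisomal genes. It raised the difference by over 1.5 times for 1 mitochondrial and 7 peroxisomal genes. With that array left out, 17 of 19 mitochondrial and 20 of 23 peroxisomal differences were above 0. The share of all genes above 0 was not counted for this setting. Several of these differences were close to 0, such as 0.03 for Cpt1a and Acat1, 0.02 for Etfb and 0.0093 for Crot. Peroxisomal genes leaned on other arrays too. Their turned or shrunken differences numbered 8 without siControl replicate 1, 7 without siOrm replicate 2 and 4 without siOrm replicate 1. For mitochondrial genes these counts were 1, 1 and 4. The siControl replicate 2 array also had the highest value of the 4 arrays for 9 of 10 macrophage markers measured. Their means were -0.05 and -0.02 in siOrm, against -0.23 and 0.97 in siControl, and the largest single value was that of Cd14, at 2.79. The same array was the highest for 6 of 7 stellate cell markers and 4 of 6 endothelial markers, against 28.1% of all genes. It was the highest for 1 of 4 cholangiocyte and 1 of 3 adipocyte markers, whose medians on it were -0.03 and -0.05. Stellate cell markers had medians of -0.01 and 0.01 in siOrm, against -0.27 and 0.48 in siControl, and endothelial markers had medians of 0.00 and -0.06 in siOrm, against -0.19 and 0.24 in siControl. Of 9 neutrophil markers 3 were highest there, against 28.1% of all genes, and 3 were lowest there, against 38.8%. Their median on that array was -0.01, while S100a8 stood at 2.75 and S100a9 at 1.95. Which markers are at or near background cannot be seen in centred values, and the part of these cells in the result was not tested.

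**Figure D4:**
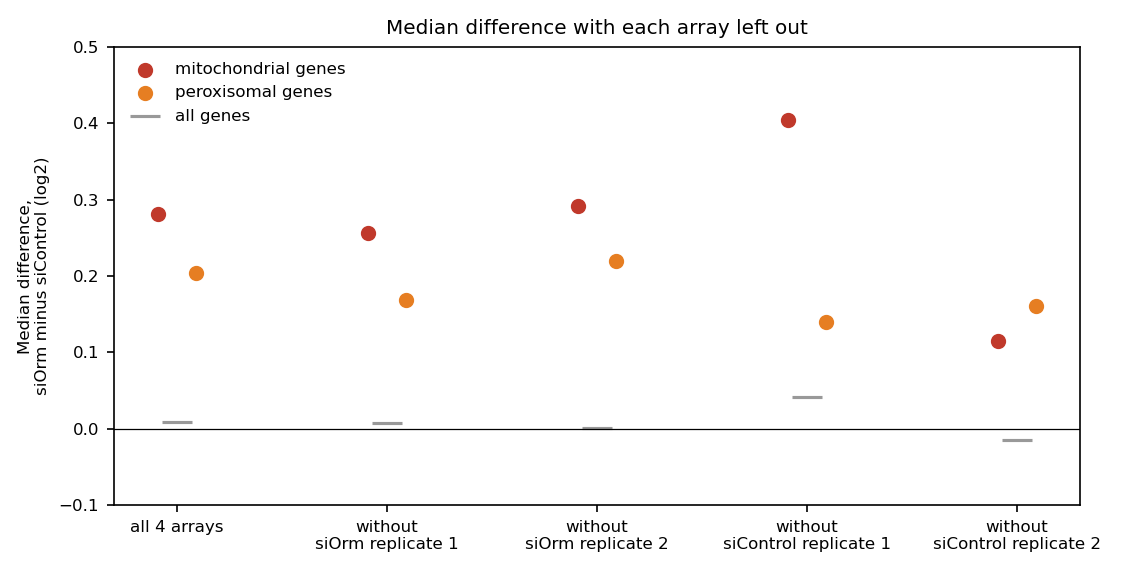
Median difference between siOrm and siControl livers on the log2 scale (y axis) for mitochondrial, peroxisomal and all genes, with all 4 arrays and with each array left out. Mitochondrial genes lay above peroxisomal genes except without siControl replicate 2, where they stood at 0.11 and 0.16.

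Other mitochondrial genes lay the same way with smaller differences. Of 43 subunits of the respiratory chain and ATP synthase, 42 had a difference above 0, and 31 were higher in siOrm without overlap, against 17.0% of all genes. Their median difference was 0.13, with a largest value of 0.34, and 0 passed the test (limma, smallest adjusted p 0.994; 0 also at an unadjusted p under 0.05). By array, their medians were 0.07 and 0.04 in siOrm, against -0.03 and -0.09 in siControl. The step down on siControl replicate 2 was thus smaller in respiratory chain genes than the one in oxidation genes, a contrast that was not tested.

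Further genes of fatty acid oxidation and peroxisomes, 35 measured of 49 listed, had a median difference of 0.20, with 16 higher and 3 lower in siOrm without overlap, against 17.0% and 15.3% of all genes, and 0 passed the test. Ech1, a dienoyl-CoA isomerase, stood at 0.22 and 0.12 in siOrm, against -0.12 and -0.78 in siControl, a difference of 0.62 (SE 0.23), or 0.29 without siControl replicate 2. Acox3, a peroxisomal oxidase, and Pxmp4, a peroxisomal membrane protein, differed by 0.35 (SE 0.13) and 0.38 (SE 0.13). Hibch and Acadsb, enzymes of branched amino acid breakdown, differed by 0.44 (SE 0.14) and 0.34 (SE 0.13). None of these 5 overlapped between groups. They were named for their small p, which favours genes without overlap, so this adds no support. Pcca, a propionyl-CoA carboxylase subunit, stood at 0.53 and 0.09 in siOrm, against -0.21 and -0.09 in siControl, a difference of 0.46 (SE 0.18), or 0.24 without siOrm replicate 1. Hao1, a peroxisomal hydroxyacid oxidase, differed by 0.35 (SE 0.14), or 0.23 without siControl replicate 2. Acsl4, a synthetase that prefers arachidonic acid, went the other way. It stood at -0.71 and -0.20 in siOrm, against 0.20 and 0.44 in siControl, a difference of -0.78 (SE 0.21, limma adjusted p = 0.994).

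PPAR-alpha and its responsive genes outside the members differed more widely. Of 17 measured, 11 were higher in siOrm without overlap and 0 lower, against 17.0% and 15.3% of all genes, and the median difference was 0.31. Cyp4a14, a fatty acid hydroxylase, and Acot3, a peroxisomal thioesterase, differed by 1.75 (SE 0.27) and 2.06 (SE 0.46), against 0.51 for the largest difference of a member. Acot4 and Acot1, further thioesterases, differed by 0.80 (SE 0.14) and 0.98 (SE 0.32), and Angptl4, which blocks lipoprotein lipase, by 0.95 (SE 0.17). None passed (limma, smallest adjusted p 0.857). Without siOrm replicate 1 the Acot3 difference was 1.34, and without siControl replicate 2 that of Acot1 was 0.49. Cyp4a12a, another fatty acid hydroxylase, stood at 0.06 and 0.35 in siOrm, against -1.49 and -0.06 in siControl, so that siControl replicate 1 alone lay far below. Its difference of 0.97 (SE 0.45) was 0.26 without that array. Vnn1 and Slc25a42 differed by 0.31 and 0.29, or by 0.20 and 0.17 without siOrm replicate 1. Ppara itself, the receptor gene, stood at 0.05 and -0.05 in siOrm, against -0.30 and 0.61 in siControl, with overlap. Fgf21 and Pdk4, which respond to PPAR-alpha and to fasting, differed by -0.23 (SE 0.32) and -0.78 (SE 0.52), also with overlap, and Pdk4 was highest in siControl replicate 2 at 1.63.

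Of the 47 members, 25 were read by 1 probe set and 22 by 2 to 5. For 17 of those 22 all probe sets of the gene differed in the same direction, and for 5, Crat, Pecr, Pex5, Pex6 and Scp2, they did not.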

How the data were processed

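Gene expression was measured on 4 single-colour arrays, named in the series text as the Affymetrix Mouse Genome 430A 2.0, with 2 siOrm and 2 siControl samples grouped by the labels. The deposited table held log2 signal for 18852 probe sets; for the software, normalization and filter behind it, nothing is given in the sources used here. Base 2 is assumed. The values show that each probe set was centred on its 4-array median (largest row median 4.8e-07), which leaves no signal level to filter on. The number of arrays limits the precision.

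The platform's annotation gave 1 symbol to 17209 probe sets, several to 564 and none to 1044; 35 were controls. Probe sets of 1 gene were averaged (10923 genes, 10907 found by gene number in the GRCm38.p6 gene table, with 0 symbols updated). Differences were tested in R 4.3.3 with limma 3.58.1 (lmFit, eBayes, constant prior with 3.60 degrees of freedom beside 2 residual ones), with p-values adjusted by Benjamini-Hochberg across the 10923 genes and called under 0.05. The fit was checked on simulated data with independent normal errors and with changes larger than that of any member. That check does not show whether changes of the members' size would be found. Members, lists, compartments and tests were chosen with earlier results of these data known, so the lists are no independent evidence.

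Named were Orm1, members at an unadjusted p under 0.05, up to 3 members per role by size of difference, members whose probe sets disagreed by over 0.3, and up to 8 genes from each of the 2 further lists by smallest p. Outside this rule, and after their values were seen, the text names the 8 members beyond the limit per role (Acadm, Hadha, Hadhb, Acaa1a, Acox2, Scp2, Pex5 and Pex6), Orm2, Orm3, Ppara, Fgf21, Pdk4, Cd14, S100a8, S100a9 and the hexamer-bearing genes. Alternatives were the variance prior, quantile normalization, array centring, the choice of probe sets, a replicate block, leaving out each array and the placing of members.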

Additional observations from a re-analysis of the deposited data

How the results depend on the processing

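The count of members called stayed at 0 under every alternative run, and the median difference of the members stayed above 0. Over all genes, 11 were called with a variance prior that follows the row mean and 0 to 229 with 1 array left out, the highest without siControl replicate 1, against 0 with all arrays. With an array left out, the members' median difference ran from 0.16 to 0.27, that of mitochondrial genes from 0.11 to 0.40 and that of peroxisomal genes from 0.14 to 0.22. Mitochondrial minus peroxisomal ran from -0.047 without siControl replicate 2 to 0.26 without siControl replicate 1, against 0.08 with all arrays. It was 0.05 with the shared members placed by compartment, 0.09 without the peroxins, and 0.06 to 0.12 under the other choices of probe sets. Members without overlap numbered 33 to 37 upward and 3 to 6 downward with 1 array left out, against 29.2% to 44.6% of all genes upward and 23.5% to 36.8% downward; with all arrays these were 29 and 1 members, against 17.0% and 15.3%. Fewer arrays make overlap rarer. With the replicate block, which the labels do not support beyond a shared number, the members' median difference was 0.23 and 0 genes were called; deviations of same-numbered arrays correlated at 0.13.

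Some differences turned sign. With the probe set of largest range, Pecr stood at -0.0070, Crat at -0.030 and Pex5 at -0.13, and with arrays centred on their medians Crot stood at -0.0058 and Pex5 at -0.00034. With 1 array left out, 0 members turned sign without siOrm replicate 1, 7 without siOrm replicate 2, and 4 each without siControl replicate 1 and siControl replicate 2. Among them Pecr ran from -0.067 to 0.57, Crot from -0.057 to 0.062, Pex13 from -0.018 to 0.26, Crat from -0.21 to 0.32, Acsl5 from -0.19 to 0.042, Hadha from -0.17 to 0.34, Hadhb from -0.12 to 0.40, Acox2 from -0.21 to 0.091, Scp2 from -0.0054 to 0.13, Pex5 from -0.048 to 0.065 and Pex6 from -0.095 to 0.050. Outside the members, Ppara ran from -0.61 to 0.30, Fgf21 from -0.68 to 0.22 and Pdk4 from -1.63 to 0.073. The cause was not tested. Of the genes outside the members, Cyp4a14, at 1.75, passed only with the variance prior that follows the row mean (limma adjusted p = 0.0418, against 0.857 with the constant prior), among the settings that keep all 4 arrays. That row mean carries no signal level here.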
